A study of Mus musculus with 20 samples.

Results

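Peroxisomes are small organelles in which hepatocytes shorten very long and branched fatty acids, make bile acid side chains and begin the synthesis of ether lipids. Proteins named peroxins, encoded by Pex genes, build the organelle and import its enzymes from the cytosol, and catalase removes the hydrogen peroxide that the oxidases release. In rodent liver, fatty acids and fibrates that bind the nuclear receptor PPARA raise the number of peroxisomes and the mRNAs of several of these enzymes. The genes described here are 32 named genes of this organelle, 12 Pex genes and 20 lipid enzymes and transporters, chosen by symbol among probe sets (groups of oligonucleotides that report 1 transcript region) whose platform annotation gives exactly 1 gene symbol. All 32 were found, with 59 probe sets, of 18193 genes with 34945 such probe sets in the whole table.

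The livers came from male C57BL/6J mice, 8 weeks old, that were killed after a 16 h fast. The MSXH group (10 mice) had eaten for 4 weeks a diet with 45 kcal% fat and 0.02% of MSXH, a maple syrup extract, and the HFD group (10 mice) had eaten the 45 kcal% fat diet without it for the same time. All mice had received a low-fat diet before that, and no low-fat mice are among these 20 arrays. Total RNA of each liver was measured on 1 Affymetrix 3′ array, so n is 10 mice per diet throughout.

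The deposited values lie between 5.17 and 15.01 on what is taken as a log2 scale, and their spread between arrays is strongly compressed: the median SD of a probe set over the 20 arrays was 1.07e-05, and 97.6% of probe sets had an SD under 0.001. A difference of means is therefore given as a standardized difference, MSXH minus HFD in units of the pooled SD within diets, and never as a fold of RNA. Hepatocyte markers were present: 9 of 10 listed were measured, and all 9 stood above the array medians. The arrays of MSXH 4 and MSXH 6 stood apart. The summed level of 14 skeletal muscle markers was 113.2 and 105.4 there, against 89.4 to 90.4 in the other 8 MSXH mice and 89.3 to 90.2 in HFD mice, and muscle markers were the highest in MSXH 4 for 13 of 14 genes. The sum of 4 adipocyte markers was 27.359 and 27.362 there, against at most 27.333 in the other MSXH mice and 27.329 in HFD mice, with 3 of 4 markers highest in MSXH 4 or 6. The sum of 5 stellate cell markers was 37.875 in MSXH 4 and 37.839 in MSXH 6, against at most 37.845 in the other MSXH mice and 37.857 in HFD mice. The medians of these arrays were 6.52255 and 6.52235, and those of the other 18 arrays reached at most 6.52172. The part of these cell types in the results was not tested, and values without these mice stand beside the results.

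No peroxisomal gene differed between the diets past the threshold, an adjusted p of 0.05 in limma with Benjamini-Hochberg adjustment over all genes. With 1 probe set per gene, 0 of 32 members passed, and 0 of all 18193 genes passed (0%), the smallest adjusted p being 0.0728. A rank sum test called 4 genes and no member. At an unadjusted p under 0.05 in the limma fit stood 1 of 32 members, Pex5, against 10.9% of all genes. Of the members, 14 had a higher mean in MSXH mice and 18 a lower one, while 54.7% of all genes were higher in MSXH. The median standardized difference was 0.15 over the Pex genes and -0.13 over the lipid enzymes and transporters, beside 0.07 over all genes. In whole liver RNA, fewer cells of a type and less RNA per cell cannot be told apart.

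The medians of MSXH 4 and 6 were shifted by many times the spread of most probe sets, and centring subtracts them. Centring each of the 20 arrays on its median moved the median standardized difference of all genes to -0.66 and left 2.75% of all genes higher in MSXH. Quantile normalization gave -0.55 and 7.16%. A sign under these scalings of all 20 arrays therefore says nothing about single genes. For part of the named genes the text gives centred values without MSXH 4 and 6. In that setting the median of all genes was -0.03 and 42.0% of them were higher in MSXH. The medians of the remaining arrays still ran from 6.52156 to 6.52172, a range wider than the median SD of a probe set, 1.07e-05. Centring subtracts these shifts too. The median absolute standardized difference of all genes was then 0.13, against 0.41 on the deposited scale without these mice. For genes with a spread narrower than these shifts, the centred values therefore say little about the single gene. On the deposited scale without MSXH 4 and 6, 15 of 32 members were higher in MSXH, and after centring 10 of 32 were. Centred in this way, 4 members differed in sign from the deposited values of all 20 arrays, Hsd17b4, Ech1, Agps and Gnpat. Quantile normalization without MSXH 4 and 6 left 24 of 32 members with any spread. Of these 24, 17 were higher in MSXH, beside 56.2% of all genes with spread. In sign, 14 differed from the deposited values of all 20 arrays.

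**Figure D1:**
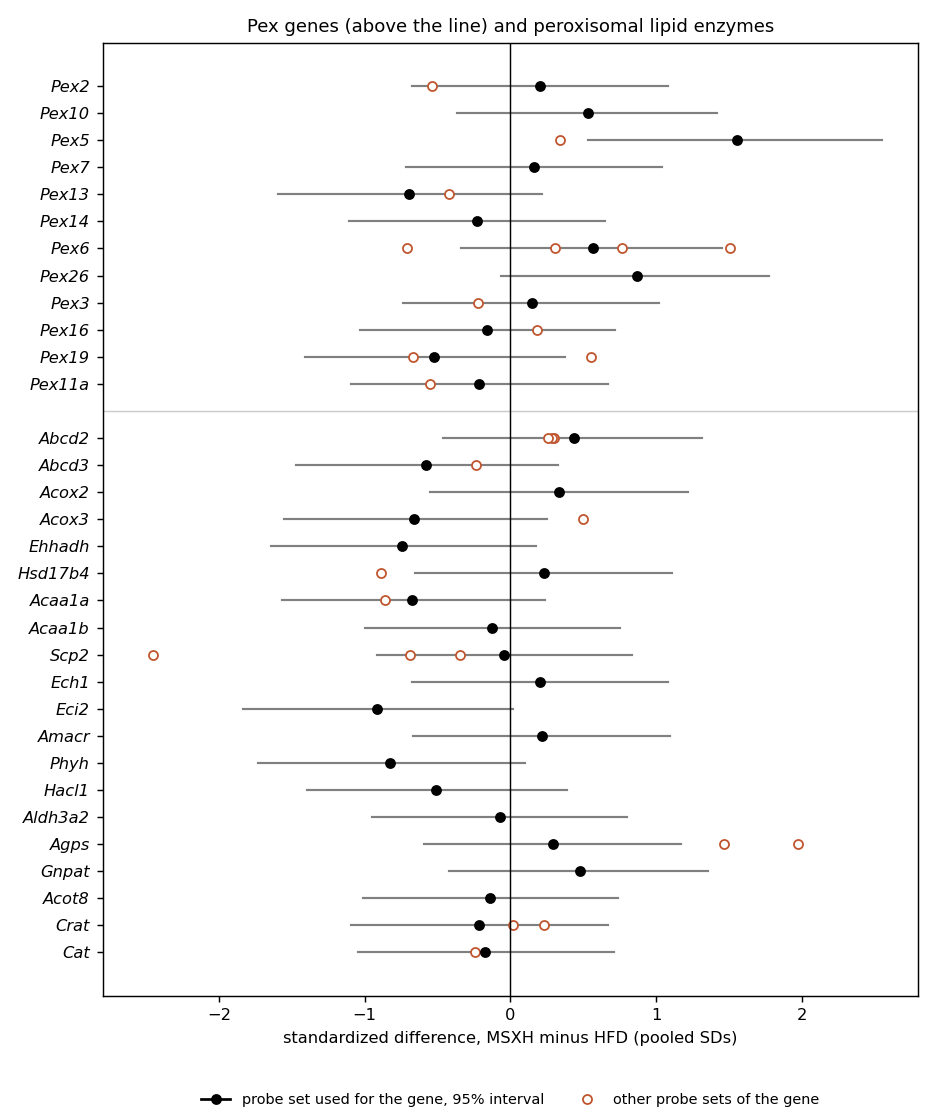
Standardized difference, MSXH minus HFD in pooled SDs (x axis), for each of the 32 genes (y axis), Pex genes above the line and lipid enzymes and transporters below it; filled points are the probe set used for the gene with its 95% interval, and open points are its other probe sets. The interval of Pex5 lies above 0, those of the other 31 genes include 0, and the open points of 7 genes lie outside the interval of their gene's filled point: Scp2 (-2.45), Agps (1.97 and 1.46), Pex6 (1.51 and -0.71), Pex5 (0.34), Pex19 (0.55), Acox3 (0.50) and Hsd17b4 (-0.89).

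Import of matrix proteins starts with receptors that bind their cargo in the cytosol. Pex5, the receptor for proteins that end in the C-terminal targeting signal, had the largest difference among the members' used probe sets. Its level in MSXH mice was 8.981327 at the lowest, 8.981372 at the median and 8.981426 at the highest, against 8.981287, 8.981331 and 8.981370 in HFD mice. The groups overlap, with 9 of 10 MSXH mice above the HFD median. The standardized difference was 1.56 (95% interval 0.53 to 2.55), the MSXH mouse was higher in 88 of 100 pairs of mice, and limma gave an unadjusted p of 0.00231 and an adjusted p of 0.241. Leaving out single mice gave 1.46 to 1.88, and leaving out MSXH 4 and 6 gave 1.78. Centred and quantile-normalized values without MSXH 4 and 6 gave 0.96 and 0.65. With the mean of its probe sets Pex5 gave 0.93. The other probe set of Pex5 gave 0.34, outside the interval of the used one (its own interval -0.54 to 1.22). Pex7 is the receptor for the N-terminal signal carried by a few enzymes including Acaa1a, Acaa1b and Agps. It stood at a mean level of 10.56945 with a standardized difference of 0.16 (interval -0.72 to 1.04).

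The receptors dock on the membrane at Pex13 and Pex14. Both docking genes had a lower mean in MSXH mice on the deposited scale, short of the threshold. Pex13 had its lowest, median and highest mouse at 10.358742, 10.358767 and 10.358799 in MSXH, against 10.358744, 10.358785 and 10.358808 in HFD. Although the ranges nearly coincide, 9 of 10 MSXH mice lay below the HFD median, and the standardized difference was -0.70 (interval -1.59 to 0.22). The other probe set of Pex13 gave -0.42. Pex14 gave -0.23 (interval -1.11 to 0.65). With the arrays centred without MSXH 4 and 6, Pex13 gave -0.27 and Pex14 -0.08. With quantile normalization without those mice they gave 0.29 and 0.74.

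Receptors leave the membrane after Pex2 and Pex10, subunits of a ubiquitin ligase, have marked them, and Pex6, an ATPase held at the membrane by Pex26, pulls them out. These 4 genes all had a higher mean in MSXH mice on the deposited scale, as had 54.7% of all genes, and none passed the threshold. Centred without MSXH 4 and 6 they gave 0.0033 for Pex2, 0.21 for Pex10, 0.32 for Pex6 and 0.68 for Pex26. With quantile normalization without those mice they differed in sign, at -0.25 for Pex2, 0.20 for Pex10, -0.14 for Pex6 and 0.77 for Pex26. Pex26 stood at 8.028487, 8.028529 and 8.028628 (lowest, median, highest) in MSXH mice, against 8.028439, 8.028519 and 8.028584 in HFD mice. Its groups overlap over most of their range, the standardized difference was 0.87 (interval -0.06 to 1.78), and the MSXH mouse was higher in 75 of 100 pairs (limma unadjusted p = 0.0633). Pex10 gave 0.53 (interval -0.37 to 1.42) and Pex2 gave 0.21 (interval -0.68 to 1.08), with -0.54 for the other probe set of Pex2.

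Pex6 has 5 probe sets, the most of any member, and they differed in sign. The probe set used for the gene, 1454738_x_at, had 9.511597, 9.511635 and 9.511675 as lowest, median and highest in MSXH mice, against 9.511602, 9.511626 and 9.511645 in HFD mice, a standardized difference of 0.57 (interval -0.34 to 1.45). On 1424078_s_at the MSXH mice had 9.076279, 9.076331 and 9.076367, against 9.076253, 9.076293 and 9.076327 in HFD mice. There 9 of 10 MSXH mice were above the HFD median, the difference was 1.51 (interval 0.49 to 2.50) and limma over all probe sets gave an unadjusted p of 0.00312 and an adjusted p of 0.268. The remaining probe sets of Pex6 gave 0.77, 0.31 and, on 1438138_a_at, -0.71. On this platform _s_at marks probes shared among transcripts, _x_at probes that may match other sequences, and _a_at alternative transcripts of 1 gene. Without MSXH 4 and 6 the value on 1424078_s_at was 1.38, and it was 0.77 when these arrays were also centred.

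Pex3, Pex16 and Pex19 put membrane proteins into the peroxisome, Pex19 as the cytosolic carrier and the others as its membrane anchors. None of the 3 passed the threshold. Pex16, among the Pex genes with the widest spread between mice, stood at 9.666483, 9.666688 and 9.666986 (lowest, median, highest) in MSXH mice, against 9.666340, 9.666756 and 9.666862 in HFD mice. The lowest and the highest of all 20 values were HFD 3 and MSXH 3, 8 of 10 MSXH mice were below the HFD median, and the standardized difference was -0.16 (interval -1.04 to 0.72). Pex3 gave 0.14 on the probe set used and -0.22 on the other. Pex19 gave -0.52 (interval -1.41 to 0.38) on the probe set used, and -0.67 and 0.55 on the others.

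Pex11a elongates and divides peroxisomes and is a PPARA-regulated gene in rodent liver. With an SD of 0.00154 over the 20 mice it had the widest spread of all members. Its level was 10.35086 at the lowest, 10.35493 at the median and 10.35648 at the highest in MSXH mice, against 10.35305, 10.35502 and 10.35672 in HFD mice. MSXH 7 and MSXH 8 were the lowest of the 20 mice, and the other MSXH mice overlapped the HFD range. The standardized difference was -0.21 (interval -1.09 to 0.67), with -0.55 on the other probe set.

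**Figure D2:**
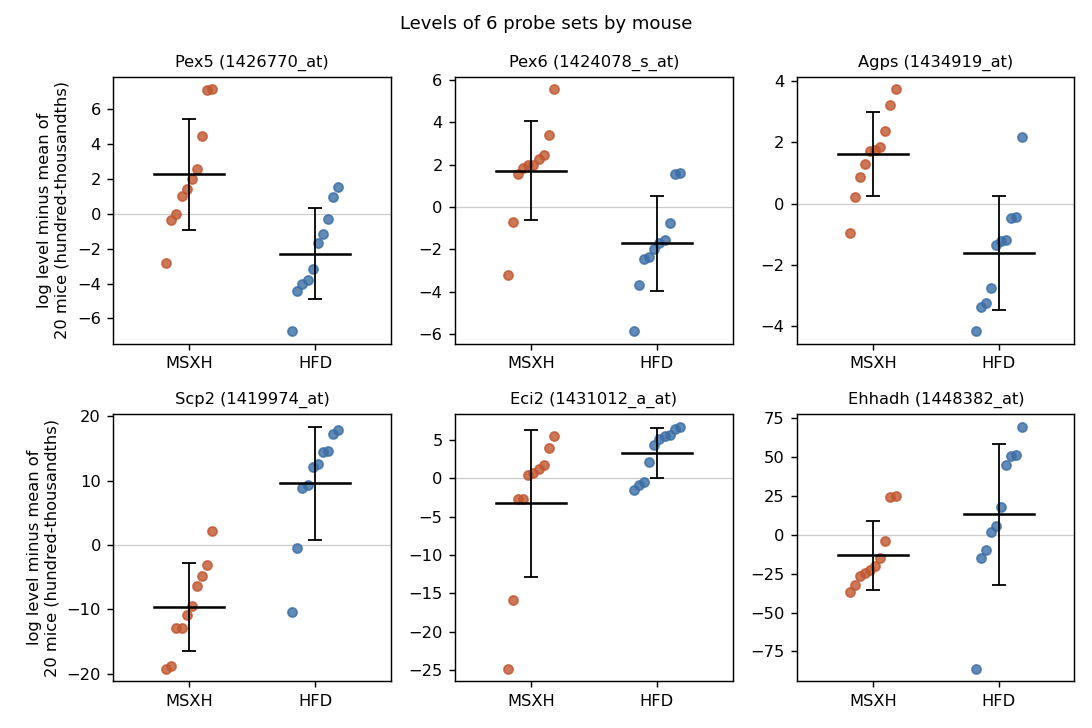
Level of each mouse minus the mean of the 20 mice, in hundred-thousandths of the deposited log scale (y axis), for 6 probe sets, MSXH mice left of HFD mice (x axis); points are mice, horizontal lines are means and bars are ±1 SD (n = 10 per diet). Each panel shows the probe set of its gene with the smallest unadjusted p in limma over all probe sets. Those of Pex6, Agps and Scp2 are not the probe sets used for the gene, which gave 0.57, 0.29 and -0.04. The probe sets shown of Pex5, Pex6 and Agps are higher and that of Scp2 lower in MSXH, each with overlap. In Eci2 the MSXH spread is drawn out by the mice MSXH 7 and MSXH 8.

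The transporters of the peroxisomal membrane carry acyl-CoA into the organelle. Abcd2, which takes very long and polyunsaturated chains, had 6.508418, 6.508493 and 6.508594 as lowest, median and highest in MSXH mice, against 6.508429, 6.508478 and 6.508542 in HFD mice. The groups overlap, 5 of 10 MSXH mice were above the HFD median, and the standardized difference was 0.43 (interval -0.46 to 1.32). The other 3 probe sets gave 0.26, 0.29 and 0.30. Abcd3, which takes branched chains, dicarboxylic acids and bile acid intermediates, had 13.0942224, 13.0942347 and 13.0942399 in MSXH mice, against 13.0942287, 13.0942354 and 13.0942433 in HFD mice. Its 5 of 10 MSXH mice below the HFD median include MSXH 8 and MSXH 7 at the bottom, and the difference was -0.58 (interval -1.47 to 0.32). Centring without MSXH 4 and 6 gave -0.12 for Abcd3 and 0.25 for Abcd2.

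Beta-oxidation in the peroxisome begins with an oxidase that passes electrons to oxygen. Acox2, the oxidase of branched chains and bile acid intermediates, had 11.090530, 11.091007 and 11.091420 as lowest, median and highest in MSXH mice, against 11.090467, 11.090970 and 11.091370 in HFD mice. These ranges nearly coincide, and the standardized difference was 0.34 (interval -0.55 to 1.22). Acox3, a second branched-chain oxidase, had 6.703361, 6.703408 and 6.703434 in MSXH mice, against 6.703341, 6.703417 and 6.703467 in HFD mice. For Acox3, 9 of 10 MSXH mice lay below the HFD median, yet the lowest mouse of all was HFD 2, and the difference was -0.66 (interval -1.56 to 0.25), while its other probe set gave 0.50.

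Hydration and dehydrogenation, the next reactions of the cycle, are catalysed by 1 bifunctional protein, Ehhadh or Hsd17b4. Ehhadh, the L-bifunctional enzyme and a classical PPARA-regulated gene in rodents, had 12.678643, 12.678798 and 12.679263 as lowest, median and highest in MSXH mice, against 12.678152, 12.679133 and 12.679711 in HFD mice. The lowest mouse was HFD 2, far below the rest of its group, and 8 of 10 MSXH mice lay below the HFD median. The standardized difference was -0.74 (interval -1.64 to 0.18), the MSXH mouse was higher in 22 of 100 pairs, and limma gave an unadjusted p of 0.107. Leaving out single mice gave -1.42 to -0.60, with -1.42 when HFD 2 was left out. For Ehhadh, centred and quantile-normalized values without MSXH 4 and 6 were -0.64 and 0.42. Hsd17b4, the D-bifunctional enzyme, gave 0.23 on the probe set used and -0.89 on 1455777_x_at (interval -1.80 to 0.05).

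Thiolases close the cycle. Acaa1a had 9.509935, 9.509997 and 9.510021 as lowest, median and highest in MSXH mice, against 9.509971, 9.510003 and 9.510041 in HFD mice. MSXH 7 and MSXH 8 were the lowest, the standardized difference was -0.68 (interval -1.57 to 0.24), and the second probe set gave -0.86 (interval -1.77 to 0.07). Acaa1a gave -0.43 when centred without MSXH 4 and 6, and 0.75 when quantile-normalized without them. Acaa1b, its near-identical neighbour that is abundant in rodent liver, gave -0.13 (interval -1.0 to 0.75). Both Acaa1a probe sets are of the _x_at kind, so signal of Acaa1b in them was not tested.

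Scp2 encodes, from different starts, a thiolase for branched chains and a sterol carrier protein, and its 4 probe sets differed more than those of any other member. The probe set used for the gene hardly separated the diets, with 13.9971904, 13.9971909 and 13.9971912 as lowest, median and highest in MSXH mice, against 13.9971903, 13.9971908 and 13.9971914 in HFD mice and a standardized difference of -0.04 (interval -0.92 to 0.84). On 1419974_at the MSXH mice had 8.976411, 8.976502 and 8.976626, against 8.976499, 8.976727 and 8.976781 in HFD mice. There 10 of 10 MSXH mice lay below the HFD median, and 1 HFD mouse, HFD 8, lay in the middle of the MSXH mice. The difference was -2.45 (interval -3.61 to -1.25), the MSXH mouse was higher in 6 of 100 pairs, and limma over all probe sets gave an unadjusted p of 2.3e-05 and an adjusted p of 0.115. Without HFD 8 it was -3.44 with an adjusted p of 0.0180, the single case in which leaving out 1 mouse brought a probe set of a member past the threshold. Without MSXH 4 and 6 it was -2.24 (adjusted p = 0.202), and centring without those mice gave -2.79. Quantile normalization without those mice gave -0.30 on this probe set. The 2 other probe sets gave -0.69 and -0.35. Which transcript of Scp2 the probe set 1419974_at reads was not tested.

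Auxiliary enzymes prepare unsaturated chains. Eci2, an enoyl-CoA isomerase, had 11.448513, 11.448766 and 11.448816 as lowest, median and highest in MSXH mice, against 11.448746, 11.448808 and 11.448828 in HFD mice. In MSXH, 9 of 10 mice lay below the HFD median, and MSXH 7 and MSXH 8 lay far below all others. Its standardized difference of -0.92 (interval -1.83 to 0.02) was the largest among the enzymes' used probe sets, with the MSXH mouse higher in 23 of 100 pairs and a limma unadjusted p of 0.0503. Eci2 gave -0.89 when centred without MSXH 4 and 6, and 0.40 when quantile-normalized without them. Ech1, a dienoyl-CoA isomerase, gave 0.21.

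Branched chains need further steps. Phyh, the hydroxylase that starts alpha-oxidation of phytanic acid, had 13.6548746, 13.6548787 and 13.6548810 as lowest, median and highest in MSXH mice, against 13.6548775, 13.6548801 and 13.6548815 in HFD mice. MSXH 8 and MSXH 7 were again the lowest mice, 8 of 10 MSXH mice were below the HFD median, and the standardized difference was -0.83 (interval -1.73 to 0.10). It was -0.10 when the arrays were centred without MSXH 4 and 6. Hacl1, the lyase of the next step, had 11.716129, 11.716952 and 11.717280 in MSXH mice, against 11.716726, 11.716938 and 11.717722 in HFD mice. Here the extremes were MSXH 8 at the bottom and HFD 4 at the top, and the difference was -0.51 (interval -1.40 to 0.39). Aldh3a2, the dehydrogenase that oxidizes the fatty aldehyde released, had 10.81959, 10.82249 and 10.82351 in MSXH mice, against 10.82048, 10.82213 and 10.82373 in HFD mice. Although MSXH 7 and MSXH 8 were the lowest, 8 of 10 MSXH mice were above the HFD median, and the difference was -0.07 (interval -0.95 to 0.80). Amacr, the racemase that lets branched chains enter beta-oxidation, gave 0.22.

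Ether lipids start from 2 peroxisomal enzymes, Gnpat and Agps. Gnpat, the acyltransferase of the first step, gave 0.47 (interval -0.42 to 1.36). Agps, which puts in the ether bond, gave 0.29 (interval -0.59 to 1.17) on the probe set used, and larger values on its other probe sets. On 1434919_at the MSXH mice had 6.455735, 6.455762 and 6.455781 as lowest, median and highest, against 6.455703, 6.455731 and 6.455766 in HFD mice. All 10 MSXH mice were above the HFD median, the difference was 1.97 (interval 0.87 to 3.04), the MSXH mouse was higher in 91 of 100 pairs, and limma over all probe sets gave an unadjusted p of 2.6e-04 and an adjusted p of 0.157. On 1443797_at the MSXH mice had 6.854685, 6.854694 and 6.854701, against 6.854676, 6.854685 and 6.854698 in HFD mice, and again 10 of 10 MSXH mice were above the HFD median, with a difference of 1.46 (interval 0.45 to 2.44; adjusted p = 0.282 in limma). Leaving out MSXH 4 and 6 gave 2.17 and 1.62, and centring the remaining arrays gave 0.92 and 0.20. Quantile normalization without those mice gave -0.31 and 0.017. All values of 1434919_at lay below the lowest array median, 6.52156. With the mean of its probe sets, Agps gave 2.38 (limma adjusted p = 0.0872), and Scp2 gave -2.06 (adjusted p = 0.160). With the most variable probe set of each gene, Scp2 had an adjusted p of 0.0870.

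Products leave the organelle as acylcarnitines or free acids. Crat, carnitine acetyltransferase, gave -0.22 on the probe set used and 0.23 and 0.02 on the others. Acot8, a thioesterase that frees acids from CoA, gave -0.14. Cat, the catalase gene, gave -0.17 (interval -1.05 to 0.71) and -0.24 on its 2 probe sets. Over all 59 probe sets of the members, 5 stood at an unadjusted p under 0.05 in the limma fit over all probe sets, against 10.7% of all 34945. These were the Pex5, Pex6 and Agps probe sets higher in MSXH mice and the Scp2 probe set lower in them, and 0 of 59 passed the adjusted threshold.

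In 31 of 32 members, all but Pex5, the means of the diets on the used probe set were less than 1 pooled SD apart, and the spread between mice of the same diet was wider. MSXH 7 was the lowest or second lowest mouse of its diet in 16 of 32 members and MSXH 8 in 14. In HFD the counts were 13 for HFD 2, 14 for HFD 3 and 11 for HFD 9, and for the other 15 mice of both diets they ran from 1 to 7. MSXH 8 and MSXH 7 had the lowest median enzyme levels, -1.0 and -0.83 pooled SDs from the mean of the 20 mice. At the other end, MSXH 3 was the highest MSXH mouse in 10 members and HFD 4 the highest HFD mouse in 9. The median of the Pex genes was 1.67 pooled SDs above the mean of the 20 mice in MSXH 3, and HFD 3 had the lowest, at -1.37.

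**Figure D3:**
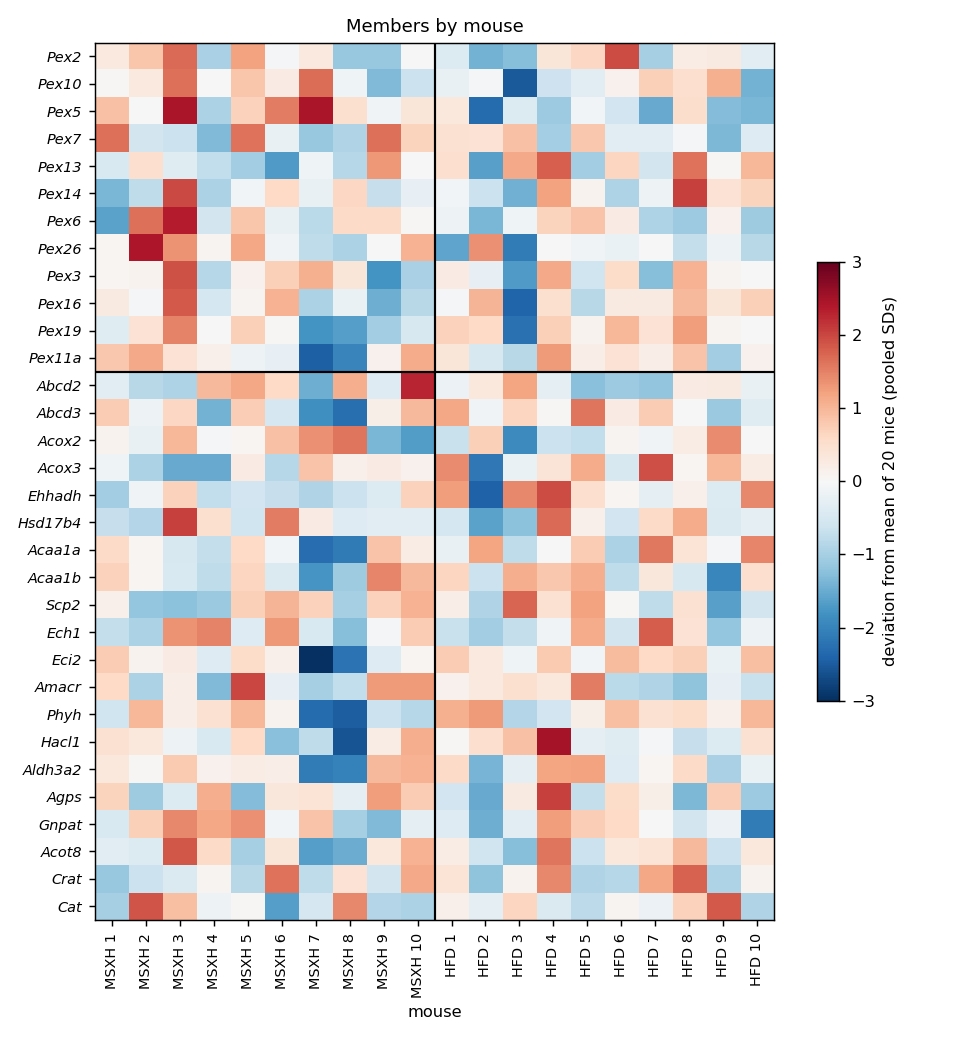
Deviation of each mouse (x axis, MSXH left of HFD) from the mean of the 20 mice in pooled SDs (colour, red above and blue below, drawn from -3 to 3) for each of the 32 genes (y axis), Pex genes above the line. MSXH 7 and MSXH 8 are low in Pex11a, Abcd3, Acaa1a, Eci2, Phyh and Aldh3a2, MSXH 3 is high in most Pex genes and HFD 3 is low in many of them.

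Correlations within diets, computed on deviations from each diet's mean over the 20 mice, describe which members went together, and all values of a mouse share 1 array. The mean correlation of pairs was 0.21 among Pex genes, 0.12 among the enzymes and transporters, 0.27 among the 20 measured PPARA target genes outside the peroxisome and 0.0035 among all genes. Leaving out MSXH 4 and 6 gave 0.20 and 0.13 for the 2 classes. Of the 496 pairs of members, 312 had a correlation above 0, 16 were above 0.7 and 1 was below -0.7. Pex11a went with Eci2 (0.85) and with Aldh3a2 (0.84), but much of this rested on MSXH 7 and MSXH 8, without which the values were 0.54 and 0.61. For Eci2 with Phyh, the fatty acid isomerase with the phytanic acid hydroxylase, 0.73 became 0.31 without the same mice. Pex16 with Pex19, both of the membrane insertion machinery, had 0.78, and 0.47 without MSXH 3 and HFD 3. When the 2 mice most distant from the first gene's median were left out, 2 of the 16 pairs stayed above 0.7. These were Pex7 with Amacr (0.76 in both cases) and Pex7 with Abcd3 (0.74 in both cases). Leaving out MSXH 7 and 8 altogether lowered the mean correlation among the enzymes and transporters to 0.06, and among the Pex genes it was then 0.23.

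The strongest opposite pair was Acox2 with Acaa1b, the branched-chain oxidase with the abundant thiolase. Its correlation within diets was -0.86, and it was -0.88 without MSXH 10 and HFD 3. The pair was picked as the lowest of 496, and its correlation under other scalings was not tested. Acox2 also opposed Aldh3a2 (-0.66) and Abcd3 (-0.65).

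Of 5 relations tested over the 20 mice by two-sided permutation with Benjamini-Hochberg adjustment over the 5, Acaa1b with Cyp4a14 passed. Cyp4a14, a PPARA-regulated omega-hydroxylase of the endoplasmic reticulum, ran opposite to Acaa1b, with Pearson's r = -0.62 (permutation p = 0.0039, adjusted 0.0195) and Spearman's rho = -0.58 (permutation p = 0.00783, adjusted 0.0391; n = 20). It was -0.77 within the MSXH mice and -0.49 within the HFD mice (permutation p = 0.0113 and 0.155), -0.63 without MSXH 7 and HFD 9, and -0.59 without MSXH 4 and 6. Centring the arrays without those mice gave -0.19. Ehhadh with Acaa1b had r = 0.47 (permutation p = 0.0357, adjusted 0.0892) and rho = 0.45 (permutation p = 0.0489, adjusted 0.0954), and r was 0.44 without HFD 2 and HFD 4. Ehhadh with Pex11a had r = 0.38 (permutation p = 0.0968, adjusted 0.161) and rho = 0.43 (permutation p = 0.0572, adjusted 0.0954), and r was 0.28 without the same mice. For Ehhadh with Cyp4a14, r was 0.12 (permutation p = 0.621, adjusted 0.777) and rho 0.16 (permutation p = 0.491, adjusted 0.614). For Pex11a with Cyp4a14, r was -0.06 and rho -0.0045 (permutation p = 0.808 and 0.988, adjusted to the same values).

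**Figure D4:**
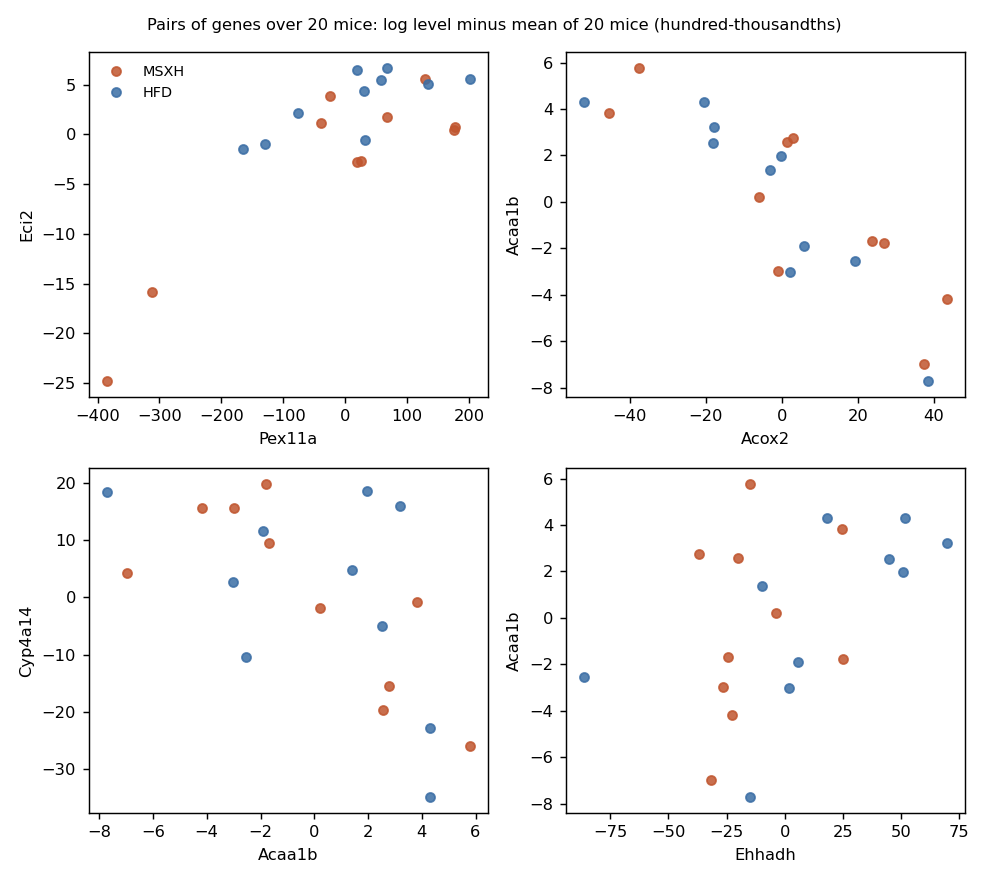
Level minus the mean of the 20 mice, in hundred-thousandths of the deposited log scale on both axes, for 4 pairs of genes named on the axes; points are mice, coloured by diet (n = 10 each). Pex11a and Eci2 are drawn together by MSXH 7 and MSXH 8 at the lower left, while Acox2 against Acaa1b and Acaa1b against Cyp4a14 slope down over mice of both diets.

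PPARA binds DNA with RXRA at a direct repeat, 2 copies of AGGTCA separated by 1 base. Promoters from RefSeq (GRCm38.p6, 250 bases before to 50 after each start) were matched for 26 of 32 members, giving 31 promoters. On either strand, 0 of 31 held a copy of the repeat with at most 1 mismatch, against 0.554% of all 32851 promoters. With at most 2 mismatches, counted over the 12 fixed bases, 2 of 31 held a copy, which is 6.45%, against 3.86% of all promoters. The 4 member genes with the closest copies are shown because 3 of them (Acox2, Aldh3a2, Phyh) are among the enzymes with the largest spread or difference; capitals mark the copy, and it has 2 mismatches in Acox2 and Cat and 3 in Aldh3a2 and Phyh, where in Phyh it is on the opposite strand. The windows are chr14:8258794-8258854, chr2:103485321-103485381, chr11:61267211-61267271 (all minus strand) and chr2:4919001-4919045 (plus strand).
Acox2: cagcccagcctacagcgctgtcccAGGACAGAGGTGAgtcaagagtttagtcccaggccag
Cat: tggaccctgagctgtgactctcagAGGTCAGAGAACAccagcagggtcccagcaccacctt
Aldh3a2: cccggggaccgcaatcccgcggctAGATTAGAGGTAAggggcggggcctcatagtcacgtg
Phyh: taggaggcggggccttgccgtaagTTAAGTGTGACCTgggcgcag
A copy of these letters is a description of the sequence, and no match speaks only of this window.

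Other peroxisomal genes were split between the diets as well. Of 56 listed, 46 were measured: 24 were higher and 22 lower in MSXH mice, 0 passed the adjusted threshold, and 5 stood at an unadjusted p under 0.05 (10.9% of the 46, the share among all genes). Acbd4, an acyl-CoA-binding protein that in human cells tethers peroxisomes to the endoplasmic reticulum, gave 1.28 (interval 0.30 to 2.24). Far2, a fatty acyl-CoA reductase of ether lipid synthesis, gave 1.10, Gstk1, a glutathione transferase, 1.07 and Slc27a4, a fatty acid transport protein, 0.97. Decr2, the peroxisomal dienoyl-CoA reductase, gave -0.95 (interval -1.87 to -0.01). Centred without MSXH 4 and 6, Acbd4 gave 0.82, Far2 0.040, Gstk1 0.88, Slc27a4 0.34 and Decr2 -0.90. With quantile normalization without those mice Gstk1 turned to -1.03. There Acbd4 gave 0.16, Far2 0.013, Slc27a4 0.25 and Decr2 -0.47.

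The regulators of peroxisome proliferation also gave no call. Of 13 listed, 11 were measured. Of these, 8 (72.7%) had a higher mean in MSXH mice, against 54.7% of all genes. At an unadjusted p under 0.05 in limma stood 0, against 10.9% of all genes. With the mean or the most variable probe set of each gene, 6 of 11 were higher. Ppara gave 0.39 (interval -0.50 to 1.27), its partner Rxra 1.10 (interval 0.14 to 2.04; limma unadjusted p = 0.135, which uses a spread moderated over genes of like level), Nr1h3, the liver X receptor alpha gene, 0.64, Pparg 0.57 and Ppargc1a, a coactivator, -0.40. On the mean of its probe sets Rxra gave -0.70, and centred without MSXH 4 and 6 it gave 0.022. At that scaling Ppara gave 0.47, Nr1h3 0.28, Pparg 0.55 and Ppargc1a -0.43.

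Among PPARA target genes outside the peroxisome, 20 of 23 listed were measured, with 7 higher and 13 lower in MSXH mice. The share higher was 35%, against 54.7% of all genes. None passed the adjusted threshold, and 1 stood at an unadjusted p under 0.05 in limma (5%, against 10.9% of all genes). That was Cyp4a31, an omega-hydroxylase, at -1.02 (interval -1.95 to -0.07; adjusted p = 0.408 in limma). Slc25a20, the mitochondrial carnitine carrier, gave -0.86, Acadl, a mitochondrial acyl-CoA dehydrogenase, -0.75, Angptl4, a secreted inhibitor of lipoprotein lipase, -0.63, Cd36, a fatty acid receptor, 0.57 and Cyp4a14 0.01 (interval -0.86 to 0.89). Acadl was at -1.32 without MSXH 4 and 6, at -0.20 when the remaining arrays were centred, and at 0.95 when they were quantile-normalized. On its most variable probe set, over all 20 arrays, Acadl gave 0.11.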

How the data were processed

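Liver RNA of 20 mice was measured on 1 array per mouse, and the depositors' table of log2 probe set values was used as deposited by the authors. The log base is read from the range of the values, and how scans were summarized and normalized is not given in the sources used here. GEO's platform annotation named the probe sets: 34945 carried 1 symbol, and 932 with several, 9211 with none listed and 64 controls, some of them among the 9211, were left out. The probe set with the highest mean stood for a gene, with no filter on level, and a second fit took every probe set.

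The test was limma 3.58.1 in R 4.3.3 (lmFit, then eBayes with variance trended on mean level, 18 residual and 0.704 prior df) as a two-sided test with Benjamini-Hochberg adjustment over all genes or all probe sets. Intervals of standardized differences are noncentral t intervals at 95%. Correlations were tested with 100000 permutations. The scripts were tested on simulated data. The number of arrays limits the precision.

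Groups come from the sample titles. Equal replicate numbers were not taken to pair mice: their correlations ran from -0.275 to 0.170, and 1 of 10 mice correlated best with its own number. Such correlations cannot exclude a pairing with a weak effect. The members, the lists and the tests were chosen with earlier results of these data known. All members are named with their values. Shown by mouse are the 4 Pex genes and 8 enzymes with the smallest unadjusted p plus the 2 Pex genes and 4 enzymes with the largest SD, and probe sets at an unadjusted p under 0.05 and the used Scp2 probe set were added after their values were seen. From the other lists the 5 smallest unadjusted p, Ppara and Cyp4a14 are named. Alternatives were other scalings, probe set choices, tests and left-out arrays; the choice of a gene's most variable probe set, and correlations without MSXH 7 and 8, were added after seeing the data.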

Additional observations from a re-analysis of the deposited data

Results flagged for a closer look

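In 4 of 150 groups of 10 mice checked, 1 mouse stood far from the others, its gap to the nearest mouse divided by the group's range being above Dixon's critical value at 95%. Chance flags about 1 in 20 such groups. Pex19 had its lowest HFD mouse, HFD 3, at 9.363684, with the next at 9.363914 (ratio 0.637). The probe set 1449686_s_at of Scp2 had its lowest MSXH mouse, MSXH 6, at 12.901885, with the next at 12.901929 (ratio 0.495). Hacl1 had its highest HFD mouse, HFD 4, at 11.717722, with the next at 11.717221 (ratio 0.503). Slc27a4 had its highest MSXH mouse, MSXH 3, at 7.874598, with the next at 7.874569 (ratio 0.480).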

How the results depend on the processing

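No setting brought a used probe set of a member past an adjusted p of 0.05. Centring all 20 arrays subtracts the shifted medians of MSXH 4 and 6. Over all 20 arrays, centring and quantile normalization both moved most genes down, so that signs under them say nothing about the members. Quantile normalization without MSXH 4 and 6 did not do so. There 56.2% of all genes with spread were higher in MSXH, and 14 members turned sign. The deposited spread is compressed for a cause that was not tested, and 10 mice per diet limit the precision. The causes of the values below were not tested, except that settings with fewer genes, more probe sets or fewer mice change the counts by their construction.

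Genes past the threshold were 1 with the mean of probe sets, 4 by the rank sum test, 12 at an adjusted p of 0.10, and 0 to 3 when single mice were left out (3 without HFD 3, 1 without MSXH 2, MSXH 3, HFD 6 or HFD 9). Genes at an unadjusted p under 0.05 numbered 735 after quantile normalization, 210 after centring, 357 after centring without MSXH 4 and 6, 986 among genes above the median gene, 3746 with every probe set, and 1667 to 2221 with single mice left out. The replicate number as a block, although no pairing by number was visible, left 0 genes past the threshold and 1816 at an unadjusted p under 0.05, 3 of them members and 0 of them targets.

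Members at an unadjusted p under 0.05 numbered 0 after quantile normalization, with or without MSXH 4 and 6, and 0 after centring without those mice. They numbered 2 with array weights, 3 with the mean or the most variable probe set or by the rank sum test, and 5 with every probe set. At an adjusted p of 0.10 stood 1 member each with the mean (Agps, 2.38) and the most variable probe set (Scp2, -2.45), and with the mean Pex5 was at 0.93 and Scp2 at -2.06. With single mice left out they numbered 1 to 5: 5 without HFD 2, 4 without HFD 3, 3 without MSXH 2 or 5, and 2 without MSXH 1, 3, 6, 7, 8 or 10 or HFD 5 or 9. Of the members' probe sets, 0 stood there after quantile normalization, with or without MSXH 4 and 6, 1 after centring without those mice, 3 among genes above the median gene, and 5 to 10 with single mice left out (10 without HFD 2, 9 without MSXH 5, 8 without MSXH 2, MSXH 3, HFD 3 or HFD 5). Probe sets of members past the adjusted threshold were 0 to 1, with 1 without HFD 8.

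Other peroxisome genes at an unadjusted p under 0.05 numbered 0 after quantile normalization and after centring without MSXH 4 and 6, 1 by the rank sum test and after quantile normalization without MSXH 4 and 6, 2 after centring and with array weights, 8 with every probe set, and 2 to 6 with single mice left out (2 without HFD 10, 3 without MSXH 5, MSXH 8 or HFD 4). Regulators numbered 1 with the mean or the most variable probe set, without a trend in eBayes and by the rank sum test, 2 with every probe set and after quantile normalization without MSXH 4 and 6, and 0 with any single mouse left out. Targets numbered 0 by the rank sum test, 2 without MSXH 4 and 6 and with the most variable probe set, 4 with every probe set, and 0 to 2 with single mice left out (0 without MSXH 7, MSXH 8, HFD 4 or HFD 10, 2 without MSXH 2, MSXH 4, MSXH 5 or HFD 3).

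Pex genes higher in MSXH numbered 0 of 12 after quantile normalization and after centring, 13 of 24 probe sets, and 6 to 8 with single mice left out. Their median turned to -0.41 and -0.61 under those scalings, to -0.0596 with the mean and -0.0076 with the most variable probe set, and lay between -0.017 and 0.29 with single mice left out (-0.017 without MSXH 3). Lipid enzymes and transporters higher in MSXH numbered 1 of 15 after quantile normalization, 0 after centring, 3 after centring without MSXH 4 and 6, 15 of 35 probe sets, and 7 to 10 with single mice left out. Their median moved to -0.67 after centring and turned to 0.14 after quantile normalization without MSXH 4 and 6 and to 0.0021 without MSXH 8, in a range from -0.23. With all arrays centred, where the offset of MSXH 4 and 6 enters every gene alike, Pearson's r was 0.74 for Acaa1b with Cyp4a14 and 0.098 for Pex11a with Cyp4a14, both turned, 0.61 for Ehhadh with Cyp4a14 and 0.71 for Ehhadh with Acaa1b. Centred without MSXH 4 and 6, a setting added after seeing the data, these were -0.19, -0.046, 0.18 and 0.30. After quantile normalization r was -0.10 for Ehhadh with Pex11a.

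The standardized differences of single genes that turned sign, none past the threshold, were as follows. Quantile normalization gave Pex2 -0.71, Pex10 -0.58, Pex5 -0.012, Pex7 -0.45, Pex6 -0.61, Pex26 -0.21, Pex3 -0.35, Abcd2 -0.65, Acox2 -0.36, Ehhadh 0.45, Hsd17b4, Ech1 and Amacr -0.45 each, Agps -0.57 and Gnpat -0.35. It also gave Slc27a4 -0.46, Far2 -0.61, Gstk1 -0.65, Acbd4 -0.38, Ppara -0.39, Pparg -0.42, Rxra -0.32, Nr1h3 -0.067, Acadl 0.31, the Agps probe sets 1443797_at -0.62 and 1434919_at -0.69 and the Pex6 probe set 1424078_s_at -0.012. Centring gave Pex2 -0.66, Pex10 -0.61, Pex5 -0.46, Pex7 -0.60, Pex6 -0.61, Pex26 -0.50, Pex3 -0.54, Abcd2 -0.60, Acox2 -0.19, Hsd17b4 -0.66, Ech1 -0.67, Amacr -0.59, Agps -0.66 and Gnpat -0.66. Among the other genes it gave Slc27a4 -0.59, Far2 -0.65, Gstk1 -0.27, Acbd4 -0.52, Ppara -0.37, Pparg -0.43, Rxra -0.65, Nr1h3 -0.60 and Cyp4a14 -0.61, and for the 2 Agps and the Pex6 probe sets just named -0.63, -0.52 and -0.53.

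Without MSXH 4 and 6, signs turned for Acaa1b (0.0067), Ech1 (-0.13), Cat (0.031) and Cyp4a14 (-0.17). Centring on top of that turned Hsd17b4 (-0.048), Ech1 (-0.061), Agps (-0.040), Gnpat (-0.017) and Cyp4a14 (-0.16). Quantile normalization on top turned Pex2 (-0.25), Pex13 (0.29), Pex14 (0.74), Pex6 (-0.14), Pex19 (0.97), Abcd2 (-0.30), Acox3 (0.14), Ehhadh (0.42), Acaa1a (0.75), Eci2 (0.40), Aldh3a2 (0.045), Agps (-0.038; -0.31 on 1434919_at), Acot8 (0.37), Crat (0.53), Gstk1 (-1.03) and Acadl (0.95). The mean of probe sets turned Pex2 (-0.29), Hsd17b4 (-0.56), Crat (0.19) and Rxra (-0.70), and the most variable probe set turned Pex2 (-0.54), Hsd17b4 (-0.89), Crat (0.23), Rxra (-0.75) and Acadl (0.11). Array weights turned Pex3 (-0.0079), Scp2 (0.032) and Cyp4a14 (-0.15). By ranks, Aldh3a2 was 3 pairs of mice above and Cyp4a14 -2 pairs from an even split. With single mice left out, ranges that crossed 0 were -0.011 to 0.33 for Pex7, -0.066 to 0.38 for Pex3, -0.36 to 0.054 for Pex11a, -0.39 to 0.068 for Acaa1b, -0.24 to 0.16 for the used Scp2 probe set, -0.24 to 0.17 for Aldh3a2, -0.39 to 0.041 for Acot8, -0.44 to 0.024 for Cat and -0.24 to 0.19 for Cyp4a14. The mean correlation among the enzymes and transporters within diets was 0.06 without MSXH 7 and 8, a setting added after seeing the data.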

Other observations

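Acaa1a and Acaa1b also share 2 probe sets that the platform annotation gives to both genes, which were not used above. On 1416946_a_at the standardized difference was -0.41 (95% interval -1.29 to 0.49), with the MSXH mouse higher in 36 of 100 pairs. On 1416947_s_at it was -0.03 (interval -0.90 to 0.85), with 50 of 100 pairs. Both values are nearer to 0 than that of the used Acaa1a probe set (-0.68).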
